A study of Ovis aries with 8 samples.

Results

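The genes described here encode the machinery that folds proteins in the endoplasmic reticulum (ER) and the unfolded protein response that adjusts it. They were 34 named genes in 6 role groups, taken by symbol from the deposited count table. All 34 had a row among the 33609 genes listed, and all 34 were among the 18193 genes with enough reads to be tested. The members had been listed with earlier results of these data known. The lowest count of any member in any pool was 113.

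RNA was sequenced from the mediobasal hypothalamus of adult Ile-de-France ewes that were food-restricted or fed ad libitum (well fed). Each group held 60 ewes, 30 in each of 2 years, whose RNA was mixed at random in equal amounts into 4 pools of 15 ewes, so n counts pools. Neither the degree and length of restriction nor the year behind each pool is given in the sources used here. A pool averages over ewes and over all cells of the tissue block, so fewer cells of a type and less RNA per cell cannot be told apart.

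Proteins that are to be secreted or built into membranes enter the ER through the SEC61 channel, fold with the help of chaperones and disulphide isomerases, and are sent to degradation if they fail. When unfolded proteins build up, the sensors ERN1 (IRE1), EIF2AK3 (PERK) and ATF6 start signalling that raises chaperone and degradation genes and lowers translation. The hypothalamus makes large amounts of peptide hormones, which are all folded by this route.

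Sequencing depth, as total counts per pool, ranged from 41261774 to 42964514 for food-restricted and from 36192025 to 48125991 for well-fed pools. Levels are given as CPM, the read count scaled to library size, with TMM factors that correct for library composition, and are not corrected for gene length. All 12 markers of the mediobasal hypothalamus were detected, with summed levels of 694 to 1060 CPM in food-restricted and 473 to 999 CPM in well-fed pools. The first principal component of all tested genes held 34.7% of the variance and split the pools across the feeding groups. Food-restricted pools 1 and 2 and well-fed pools 3 and 4 lay above 0, and food-restricted pools 3 and 4 and well-fed pools 1 and 2 lay below it.

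In the food-restricted pools 25 of the 34 members were lower in the fit than in the well-fed pools, or 73.5%, where 47.1% of all tested genes were lower. The median log2 fold change of the members was -0.07, beside 0.01 over all tested genes. No member passed the test over all genes (edgeR quasi-likelihood, adjusted p of 1 for each), where 0.0055% of genes were called higher and 0% lower. DESeq2 called 0 members as well. At an unadjusted p under 0.05 edgeR had 3 members lower, or 8.82%, beside 1.03% of all tested genes, and 0 members higher, beside 0.671%. These 3 were the chaperone genes CALR, HYOU1 and HSPA5. Without food-restricted pool 1, or without well-fed pool 2, the count was 1, and across all 8 pools left out in turn it lay between 1 and 4. The shares of all tested genes in both directions together lay below the 0.05 that evenly spread p-values would give. They cover genes of every level, and only 10523 of the 18193 had a mean level at least that of the lowest member. Shares among genes of like level were not computed. Pools of the groups did not overlap in 1 member, CALR, or 2.94%, where 1.1% of all tested genes were lower without overlap.

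**Figure D1:**
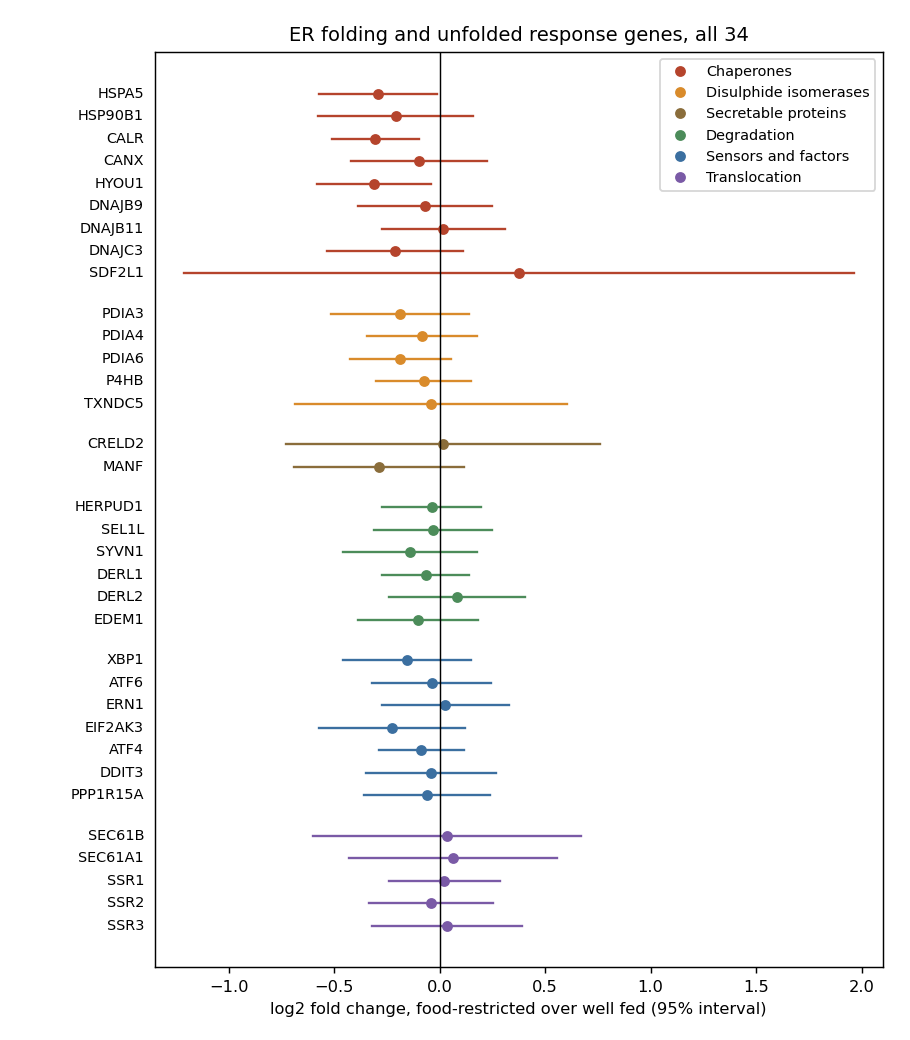
Log2 fold change of each of the 34 members (x axis, food-restricted over well fed), grouped by role from top to bottom; points are edgeR estimates and lines their 95% intervals, not adjusted for the number of genes. All but 3 intervals reach across 0, and these 3 belong to CALR, HYOU1 and HSPA5, at -0.31, -0.31 and -0.29.

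The chaperones of the ER lumen and their co-chaperones had the largest median difference of the 6 role groups in the fit of all pools. The pair CRELD2 and MANF had a larger one without food-restricted pool 1 or 2, without well-fed pool 1 or 2, and with 1 surrogate variable in the fit. Of these 9 genes 7 were lower in the food-restricted pools, with a median log2 fold change of -0.21. That median was -0.11 without food-restricted pool 2 and -0.10 without well-fed pool 2. CALR (calreticulin, gene ID 101104396) is a lectin chaperone that binds calcium and holds newly made glycoproteins. It was at 423, 432, 431 and 406 CPM in food-restricted pools 1 to 4, against 549, 561, 454 and 526 CPM in well-fed pools 1 to 4. Every food-restricted pool lay below every well-fed pool, and the food-restricted pools lay close together. CALR averaged 423 ± 12.2 CPM in food-restricted and 523 ± 48.2 CPM in well-fed pools (SD, n = 4 each), a difference of -0.31 on the log2 scale (SE 0.09, 95% interval -0.51 to -0.10). The exact permutation test of the log2 levels (two-sided) gave p = 0.0286, the smallest that 4 pools against 4 allow. CALR ranked 37th by p among all tested genes in edgeR.

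HYOU1 (gene ID 101105848) encodes a large HSP70-related chaperone that exchanges the nucleotide of BiP. It was at 235, 319, 252 and 296 CPM in food-restricted pools 1 to 4, against 387, 346, 328 and 307 CPM in well-fed pools 1 to 4. Food-restricted pool 2 lay inside the well-fed range, and the other food-restricted pools lay below it. The log2 fold change was -0.31 (SE 0.12, 95% interval -0.58 to -0.04), and the exact permutation test gave p = 0.0571.

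HSPA5 (gene ID 780447) encodes BiP, the main HSP70 chaperone of the ER, which also holds the stress sensors inactive. It was at 948, 933, 1216 and 1023 CPM in food-restricted pools 1 to 4, against 1346, 1467, 1050 and 1178 CPM in well-fed pools 1 to 4. The groups overlapped through food-restricted pool 3, which was above well-fed pools 3 and 4. HSPA5 averaged 1030 ± 130 CPM in food-restricted and 1260 ± 184 CPM in well-fed pools (SD, n = 4 each), a difference of -0.29 on the log2 scale (SE 0.13, 95% interval -0.57 to -0.01). The exact permutation test gave p = 0.114.

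Among the other chaperones, HSP90B1 (GRP94), the ER form of HSP90, was at 964 ± 194 CPM in food-restricted and 1113 ± 217 CPM in well-fed pools (SD, n = 4 each), a difference of -0.21 on the log2 scale (SE 0.17). DNAJC3, a BiP co-chaperone that also inhibits the kinase PERK, had a log2 fold change of -0.21 (SE 0.15). The membrane-bound lectin CANX (calnexin), the partner of calreticulin, was at -0.10 (SE 0.15). That difference was smaller than the spread between pools. The BiP co-chaperones DNAJB9, which also represses IRE1, and DNAJB11 were at -0.07 (SE 0.14) and 0.02 (SE 0.13). SDF2L1, a component of the BiP chaperone complex, was at 0.38 with an SE of 0.72, and its interval of -1.21 to 1.97 covers large changes in either direction.

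The protein disulphide isomerases, which form and rearrange the disulphide bonds of folding proteins, were lower in the food-restricted pools in 5 of 5 genes, with a median log2 fold change of -0.08. The median was -0.05 without food-restricted pool 4, -0.03 without well-fed pool 3, -0.13 without food-restricted pool 2 and -0.14 without well-fed pool 1. PDIA6, which also acts on the IRE1 sensor, was at 256, 281, 288 and 272 CPM in food-restricted pools 1 to 4, against 326, 361, 271 and 289 CPM in well-fed pools 1 to 4. Its well-fed pools 1, 2 and, narrowly, 4 lay above all food-restricted pools, while well-fed pool 3 lay among them. The log2 fold change of PDIA6 was -0.19 (SE 0.11). PDIA3, the isomerase that works with calreticulin and calnexin on glycoproteins, was also at -0.19 (SE 0.15). P4HB, the classical isomerase and a subunit of the collagen hydroxylase, was at -0.07 (SE 0.10), PDIA4 at -0.08 (SE 0.12) and TXNDC5 at -0.04 (SE 0.29). The sign of TXNDC5 turned when food-restricted pool 3 was left out (0.15), and likewise when pool 3 (0.20) or pool 4 (0.0080) of the well-fed ewes was.

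**Figure D2:**
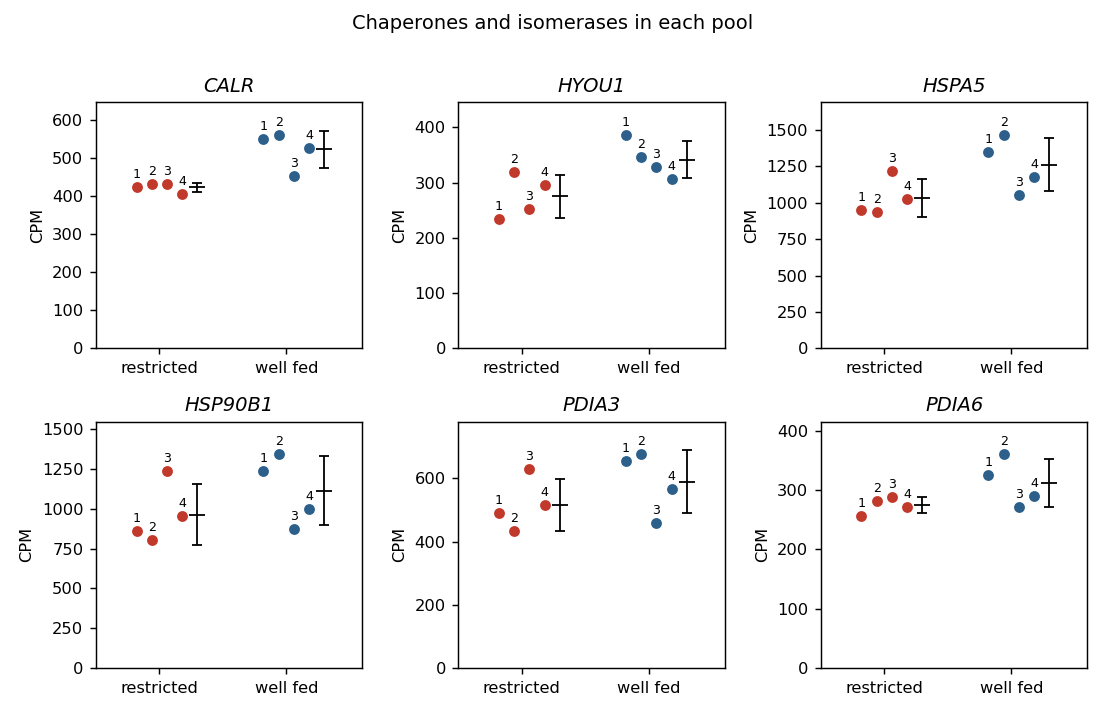
Level of 4 chaperone and 2 isomerase genes in every pool (y axis, TMM-scaled CPM from 0), food-restricted left of well fed; numbers name the pool and the black bar is mean ± SD (n = 4). In CALR the pools do not overlap, and in the other 5 genes at least 1 food-restricted pool reaches into the well-fed range.

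Summed over the 9 chaperone genes, reads came to 3019, 3050, 3833 and 3306 CPM in food-restricted pools 1 to 4, against 4274, 4386, 3300 and 3581 CPM in well-fed pools 1 to 4. The sums overlapped, since food-restricted pool 3 lay above well-fed pools 3 and 4. The isomerases summed to 1220 to 1342 CPM in food-restricted pools and to 1274 to 1498 CPM in well-fed pools. Pools above 0 on the first principal component had the lowest chaperone sum within each group. Among these pools alone the median log2 ratio of chaperones, food-restricted over well fed, was -0.17, and among pools below 0 it was -0.24. In 7 of 9 chaperone genes the food-restricted mean was lower on both sides. Over all members this held for 18 of 34, or 52.9%, where 25.6% of all tested genes were lower on both sides. Each side held 2 pools of each group, and the sides were drawn from the same data. These shares therefore restate the comparison of all pools and are no separate evidence for it.

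CRELD2 and MANF, small luminal proteins that unfolded protein stress induces and that cells can secrete, gave no common direction. MANF was at 129, 132, 105 and 101 CPM in food-restricted pools 1 to 4, against 101, 125, 160 and 184 CPM in well-fed pools 1 to 4. Its groups overlapped, with the highest levels in well-fed pools 3 and 4. The log2 fold change of MANF was -0.29 (SE 0.18), close in size to that of HSPA5 but with a wider interval of -0.69 to 0.12. CRELD2 was at 0.01 (SE 0.34).

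The genes of ER-associated degradation, which returns misfolded proteins to the cytosol for the proteasome, differed between the feeding groups by 0.14 or less on the log2 scale. Of the 6 genes 5 were lower in food-restricted pools and 1 was higher, with a median of -0.05. The summed level was 459 to 477 CPM in food-restricted and 463 to 495 CPM in well-fed pools. SYVN1 (HRD1), the ubiquitin ligase at the core of the pathway, had the largest difference, at -0.14 (SE 0.14). Its adaptor SEL1L was at 91.4 ± 10.2 CPM in food-restricted and 93.4 ± 11.9 CPM in well-fed pools (SD, n = 4 each). HERPUD1, a stress-induced organiser of the ligase complex, was at 137 ± 12.6 CPM in food-restricted and 140 ± 10.7 CPM in well-fed pools (SD, n = 4 each). EDEM1, which marks misfolded glycoproteins for removal, was at -0.10 (SE 0.13). The derlins, which help move the substrate across the membrane, were at -0.07 (SE 0.09) for DERL1 and 0.08 (SE 0.15) for DERL2. The intervals of the 6 genes lay between -0.46 and 0.41.

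The sensors and transcription factors of the response were lower in the food-restricted pools in 6 of 7 genes, with a median of -0.06, and 0 of 7 had an unadjusted p under 0.05. EIF2AK3 (gene ID 101110042), the PERK kinase that phosphorylates eIF2alpha and slows translation, was at 24.8, 29.4, 39.5 and 29.5 CPM in food-restricted pools 1 to 4, against 42.0, 34.7, 33.0 and 34.2 CPM in well-fed pools 1 to 4. All food-restricted pools except pool 3 lay below the well-fed range. Its log2 fold change was -0.23 (SE 0.16), the largest among the sensors. ATF4 (gene ID 100216465), the factor translated when eIF2alpha is phosphorylated, was at 335, 293, 327 and 334 CPM in food-restricted pools 1 to 4, against 342, 364, 316 and 346 CPM in well-fed pools 1 to 4. The pools of the groups were interleaved, and the log2 fold change was -0.09 (SE 0.09).

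DDIT3 (CHOP, gene ID 541600), a factor of prolonged stress that ATF4 induces, was at 30.6, 21.1, 27.2 and 24.4 CPM in food-restricted pools 1 to 4, against 24.8, 28.9, 25.3 and 27.2 CPM in well-fed pools 1 to 4. Food-restricted pools held both the highest and the lowest value. PPP1R15A (GADD34), the phosphatase subunit that reverses the phosphorylation of eIF2alpha, was at 64.7, 62.0, 50.4 and 60.3 CPM in food-restricted pools 1 to 4, against 74.3, 60.6, 52.3 and 60.4 CPM in well-fed pools 1 to 4. The log2 fold changes of DDIT3 and PPP1R15A were -0.04 (SE 0.14) and -0.06 (SE 0.13).

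ERN1 (IRE1, gene ID 101102746), the sensor that splices the XBP1 transcript, was at 23.3, 23.5, 26.7 and 26.3 CPM in food-restricted pools 1 to 4, against 26.5, 22.1, 28.4 and 20.9 CPM in well-fed pools 1 to 4. The food-restricted pools lay within the well-fed range, and the log2 fold change was 0.03 (SE 0.14). XBP1 (gene ID 100037692) was at 184, 152, 195 and 172 CPM in food-restricted pools 1 to 4, against 212, 226, 152 and 192 CPM in well-fed pools 1 to 4. Its groups overlapped, with the highest levels in well-fed pools 1 and 2, and the log2 fold change was -0.15 (SE 0.14). Counts per gene do not tell spliced from unspliced XBP1. ATF6 (gene ID 541606), a membrane-bound factor that is cut in the Golgi to become active, was at 52.3, 50.8, 65.0 and 54.5 CPM in food-restricted pools 1 to 4, against 63.5, 61.8, 49.9 and 53.1 CPM in well-fed pools 1 to 4. The groups overlapped over nearly their whole range, at a log2 fold change of -0.04 (SE 0.13).

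**Figure D3:**
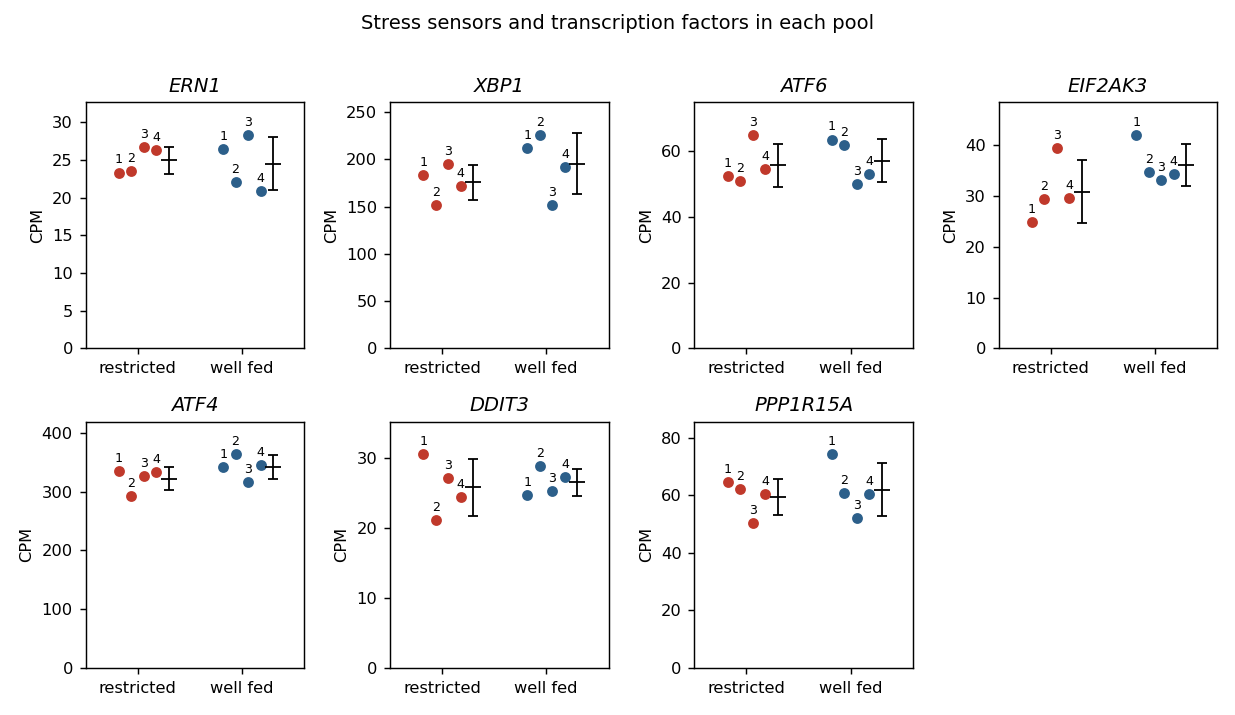
Level of the 7 sensor, transcription factor and phosphatase genes in every pool (y axis, TMM-scaled CPM from 0), food-restricted left of well fed; numbers name the pool and the black bar is mean ± SD (n = 4). The pools of the groups overlap in all 7 genes.

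The genes of protein entry into the ER gave no stable direction. Of the 5 genes 4 were higher in the food-restricted pools in the fit, with a median log2 fold change of 0.04. The median was below 0 without food-restricted pool 1 (-0.0073), food-restricted pool 3 (-0.04) or well-fed pool 1 (-0.03). The channel subunits SEC61A1 and SEC61B were at 0.06 (SE 0.22) and 0.04 (SE 0.29). The subunits of the translocon-associated protein complex, which helps some proteins through the channel, were at 0.02 (SE 0.12) for SSR1, -0.04 (SE 0.13) for SSR2 and 0.04 (SE 0.16) for SSR3. The difference between this median and that of the chaperones was not tested.

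For 29 of the 34 members the 95% interval excluded a change of 1.5-fold or more in either direction (0.58 on the log2 scale). The 5 with wider intervals were SDF2L1, TXNDC5, CRELD2, MANF and SEC61B. A coefficient of variation over 20% in both groups was seen in 5 members, which were SDF2L1, TXNDC5, CRELD2, SEC61B and SEC61A1. In SDF2L1 it was 72.8% among food-restricted and 86.3% among well-fed pools, and in DERL1 4.72% and 3.35% in the same groups. The median over all members was 13.9% among food-restricted and 13.0% among well-fed pools. The 10523 genes with a mean level of at least 13.8 CPM, the lowest among the members, had medians of 14.5% and 12.5% in these groups.

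Members with a wide spread, led by SDF2L1 and CRELD2, followed the split on the first principal component in both feeding groups. SDF2L1 (gene ID 101115992) was at 21.0, 29.1, 5.48 and 6.93 CPM in food-restricted pools 1 to 4, against 2.48, 3.74, 19.5 and 22.4 CPM in well-fed pools 1 to 4. It was high in the same 4 pools that lay above 0, in either feeding group, and low in the other 4. The mean over pools above 0 was 4.94 times that over pools below 0, the 99th largest such ratio among 18193 genes. CRELD2 (gene ID 114114097) was at 45.5, 51.0, 22.4 and 24.5 CPM in food-restricted pools 1 to 4, against 19.6, 27.7, 44.7 and 50.0 CPM in well-fed pools 1 to 4. Its pools above 0 were 2.03 times those below 0. The corresponding ratios were 1.76 for SEC61B, 1.65 for TXNDC5, whose sides overlapped, 1.52 for SEC61A1 and 1.40 for MANF.

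**Figure D4:**
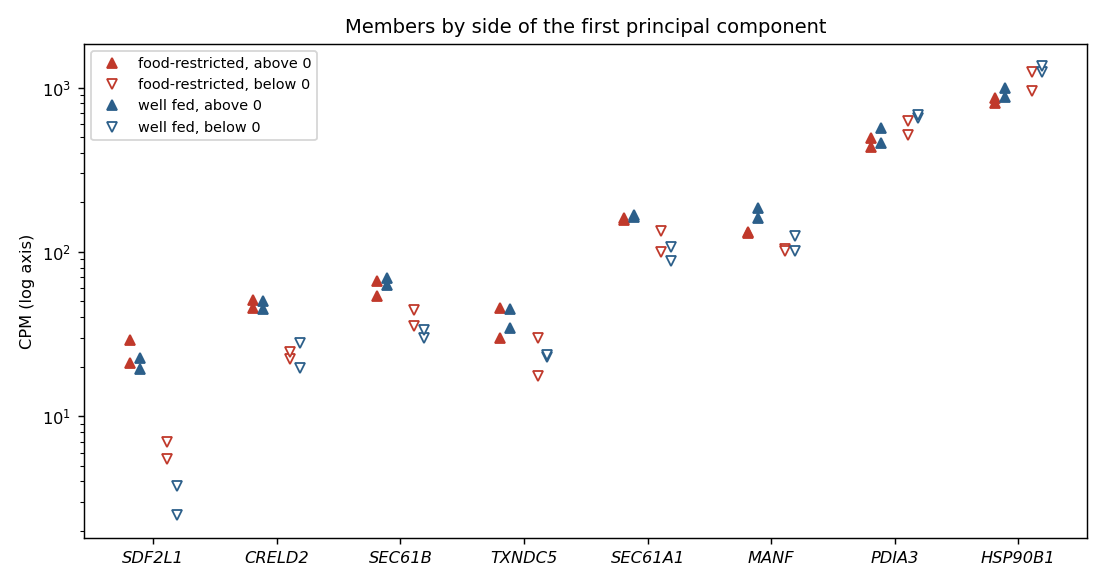
Level in every pool (y axis, TMM-scaled CPM on a log axis) of 6 members that were higher in pools above 0 on the first principal component and of 2 that were lower; filled triangles up are pools above 0, open triangles down pools below 0, and colour gives the feeding group. SDF2L1 lies at 19.5 CPM or more in all pools above 0 and at 6.93 CPM or less in all pools below 0.

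Other members were lower in the pools above 0. The ratio of pools above to pools below 0 was 0.74 for HSP90B1, 0.79 for PDIA3, 0.79 for CANX, 0.79 for DNAJC3 and 0.81 for HSPA5. The sides did not overlap in CANX and DNAJC3, but they did in HSP90B1, PDIA3 and HSPA5. Within the chaperone group, the mean levels of SDF2L1 and HSPA5 thus went in opposite directions along this split. In the translocation group those of SEC61B and SSR1 (ratio 0.85) did so as well. Pools above 0 were higher without overlap in 6 members (17.6%), beside 14.2% of all tested genes, and lower without overlap in 5 (14.7%), beside 8.93%. At least 2-fold higher were 2 members (5.88%), beside 5.95% of all tested genes. These shares are near those of all tested genes, which defined the split, and no test was made of it.

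Levels of marker genes differed along the same split. The 8 tested pituitary markers of 10 summed to 3516 to 4505 CPM in pools above 0 and 2451 to 3390 CPM in pools below 0. CHGA weighed most in these sums, with means of 2239 CPM above 0 and 1575 CPM below 0. Of the pituitary markers 4 were higher above 0 without overlap. CGA, TSHB and PRL had lower means there (ratios of 0.96, 0.98 and 0.67), so the list did not move as a whole. The 12 mediobasal hypothalamus markers summed to 812 to 1060 CPM above 0 and 473 to 789 CPM below 0. POMC contributed much of that gap, with means of 276 CPM above 0 and 74.7 CPM below 0. Of these markers 3 were higher above 0 without overlap, which were POMC, NR5A1 and SIX6, with ratios of 3.69, 2.48 and 2.04. In the others the sides overlapped, with ratios from 0.96 for TBX3, whose mean was slightly lower above 0, to 1.82 for NPY. Whether the sides differed in their share of hypothalamic or pituitary tissue was not tested. The 7 endothelium markers summed to 270 to 341 CPM above 0 and 244 to 268 CPM below 0. Among them CLDN5 was higher above 0 without overlap (means of 17.1 and 3.41 CPM), and VWF and SLC2A1 had ratios of 1.28 and 1.23. FLT1 was lower above 0 without overlap (ratio 0.84), and PECAM1 had a ratio of 0.90. Sums of the other 8 of 11 lists overlapped between the sides. Total counts were between 36192025 and 48125991 above 0 and between 38257725 and 44855182 below 0. Their part in the levels of SDF2L1 and CRELD2 was not tested.

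Between the feeding groups the marker sums overlapped in all 11 cell type and tissue lists, though single markers did not. AGRP and NPY were higher in food-restricted pools without overlap, at log2 fold changes of 1.61 and 1.24 (beside 0.495% of all tested genes). AGRP was the 1 gene called over all genes (edgeR, adjusted p of 0.0296). The B cell gene CD79A was lower without overlap, at 0.515 against 0.982 CPM (beside 1.1%). Pituitary markers summed to 3049 to 3713 CPM in food-restricted and 2451 to 4505 CPM in well-fed pools. The 9 tested neuron markers of 10 summed to 2674 to 3144 CPM in food-restricted and 2687 to 3061 CPM in well-fed pools. The list for B cells and for plasma cells, which fold large amounts of antibody, had 3 of 6 markers tested. These were JCHAIN, MZB1 and CD79A, with sums of 5.64 to 7.04 CPM in food-restricted and 5.49 to 6.71 CPM in well-fed pools. The other 3, CD79B, TNFRSF17 and POU2AF1, had at most 7 reads in any pool.

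**Figure D5:**
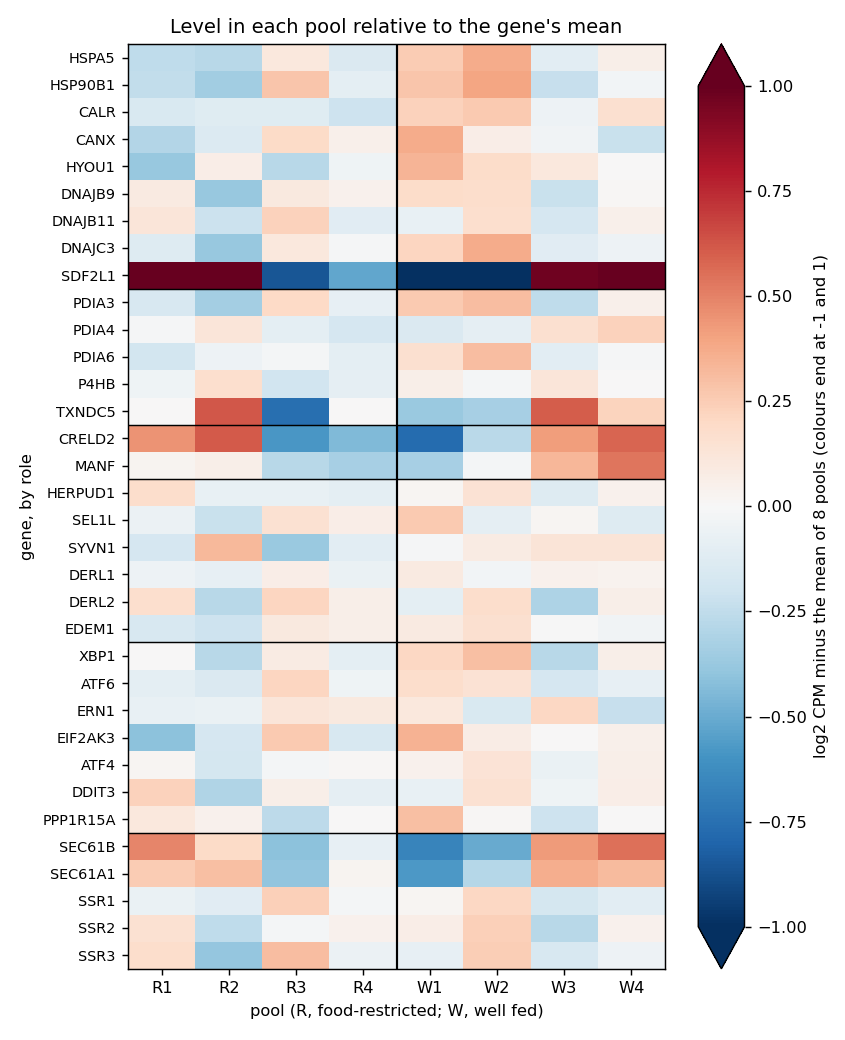
Level of each member in each pool relative to the mean of the gene over all 8 pools (colour, log2 CPM difference, ending at -1 and 1), with food-restricted pools R1 to R4 left of well-fed pools W1 to W4 and genes in role groups. SDF2L1, CRELD2, TXNDC5 and the SEC61 genes are high in pools R1, R2, W3 and W4 or most of these, while HSPA5, HSP90B1 and PDIA3 are highest in W1 and W2 or R3.

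Some pools often lay at the end of their group. Food-restricted pool 3 was the highest of its group in 18 of the 34 members and food-restricted pool 2 the lowest in 17. Among the well-fed pools, pool 2 was the highest in 16 members and pool 3 the lowest in 18. Food-restricted pool 2 held the lowest level of all 8 pools in 12 members, and well-fed pool 2 the highest in 10.

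Another 75 genes of the same pathways, listed by role, gave no call either (edgeR, 0 of 75 at an adjusted or an unadjusted p under 0.05). Of these, 34 were higher and 41 lower in the food-restricted pools, or 54.7% lower beside 47.1% of all tested genes, with a median log2 fold change of -0.02. The 22 other folding genes had a median of -0.02, with 12 lower. Their smallest p belonged to GANAB, the catalytic subunit of glucosidase II that prepares glycoproteins for calreticulin, at 177 ± 17.9 CPM in food-restricted and 203 ± 29.7 CPM in well-fed pools (SD, n = 4 each). The log2 fold changes were -0.20 (SE 0.12) for GANAB, -0.13 (SE 0.10) for the luminal protein ERP29 and -0.14 (SE 0.12) for MOGS, which is glucosidase I.

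The 17 other degradation genes had a median of -0.03, with 12 lower. HERPUD2, a relative of HERPUD1, was at 46.1 ± 6.56 CPM in food-restricted and 36.8 ± 6.27 CPM in well-fed pools (SD, n = 4 each), a difference of 0.32 on the log2 scale (SE 0.15). EDEM2 was at -0.18 (SE 0.14), and VCP, the ATPase that pulls substrates from the membrane, at -0.14 (SE 0.11). The 16 other signalling genes had a median of -0.02, with 8 higher and 8 lower. ATF3, a stress-induced factor downstream of ATF4, was at 8.40 ± 2.36 CPM in food-restricted and 6.26 ± 1.32 CPM in well-fed pools (SD, n = 4 each), a difference of 0.43 on the log2 scale (SE 0.23).

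Without overlap between the groups were MBTPS2 and TMBIM6, which is 1 gene higher (beside 0.495% of all tested genes) and 1 lower (beside 1.1%). MBTPS2, a protease that cuts ATF6 in the Golgi, averaged 15.9 ± 0.357 CPM in food-restricted and 14.1 ± 0.644 CPM in well-fed pools (SD, n = 4 each). TMBIM6, an ER membrane protein that inhibits IRE1, averaged 690 ± 28.6 CPM in food-restricted and 749 ± 31.0 CPM in well-fed pools (SD, n = 4 each). The 20 other genes of translocation, signal peptide cleavage and N-glycosylation had a median of 0.01, with 11 higher and 9 lower. Their smallest p values belonged to SERP1, which binds the SEC61 channel, at 0.18 (SE 0.14), SRPRA, a subunit of the signal recognition particle receptor, at -0.11 (SE 0.10), and the oligosaccharyltransferase subunit RPN1, at 0.12 (SE 0.11).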

How the data were processed

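The authors deposited raw counts of reads for each gene and pool, per the file headers. Libraries were stranded mRNA libraries, per the labels' protocols. The tools, per the submitters' processing notes, included featureCounts 2.0.0, TopHat2 2.1.1 and Bowtie2 2.3.5.1, and SAMtools 1.9. Genome build, annotation release and strand setting were not given in those sources, so no coordinates are printed and overlapping or near-identical genes are uncertain. The IDs of all 34 members matched the RefSeq gene list of sheep assembly ARS-UI_Ramb_v3.0, under the same symbol in 33, with DDIT3 listed there by its ID alone.

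Counts were analysed with edgeR 4.0.16 in R 4.3.3: filterByExpr (minimum count 10, minimum total 15), TMM scaling, and the quasi-likelihood F test of food-restricted against well-fed pools with no covariate. Adjustment was by Benjamini-Hochberg over all 18193 genes tested, with a threshold of 0.05. Log2 fold changes are food-restricted over well fed, with SE from the F statistic and intervals from the moderated t distribution. Single members had an exact permutation test over 70 assignments of the pools, on log2 levels (prior count 2). The common biological coefficient of variation was 28.3%. The fit was tested on simulated data. The 15 alternatives were RLE size factors, library totals alone, no low-count filter, DESeq2 1.42.0, a replicate block, a block by the sign of the first principal component, 1 surrogate variable (sva 3.50.0) and each of 8 pools left out. Figures were drawn with Python 3.11.15.

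The members, lists and tests were chosen with earlier results of these data known. Pool values are given for members with an unadjusted p under 0.05, HSPA5 and the 7 sensor genes. Those of PDIA6, MANF, SDF2L1 and CRELD2 were added after their values were seen. Of each list of other ER genes the 3 with the smallest p are named. Marker lists covered 93 genes, of which 10 were not tested. No 2 pools of a group agreed within sampling noise (chi-square over degrees of freedom from 25.0 to 169). The p-values set the difference between groups against the spread between pools, not between ewes. Promoter and protein sequences were not analysed here.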

Additional observations from a re-analysis of the deposited data

Results flagged for a closer look

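In 2 of the 68 groups of 4 pools, formed by 34 members in 2 feeding groups, 1 pool stood far from the others relative to the range of the group. Chance alone flags about 5% of such groups. DNAJB9, the BiP co-chaperone, was at 41.4 CPM in food-restricted pool 2, where the other food-restricted pools were between 55.5 and 57.4 CPM. HERPUD1, the organiser of the degradation ligase, was at 155 CPM in food-restricted pool 1, where the other food-restricted pools were between 129 and 131 CPM.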

How the results depend on the processing

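No member was called higher or lower under any of the 15 alternatives, and the median log2 fold change of the members stayed between -0.10 and -0.05. Over all genes, where 1 was called higher and 0 lower, edgeR called 2 higher and 4 lower when each pool's sign on the first principal component was a block and 3 higher and 5 lower with 1 surrogate variable, and DESeq2 called 3 lower. With a replicate block in the fit, edgeR called 0 genes higher, and 1 member, CALR, kept an unadjusted p under 0.05. Same-numbered pools of the groups had negatively correlated deviations (between -0.42 and -0.21). Whether such pools share more than a number is not given in the labels and was not tested. Leaving out 1 pool at a time gave 0 genes called higher (0 to 0). At an unadjusted p under 0.05, edgeR had 6 members with the sign block. Of these, 5 (14.7%) were lower, beside 1.86% of all genes, and the other was higher. With 1 surrogate variable it had 6 members, all lower (17.6%), beside 2.35% of all genes. The sign of the log2 fold change held under all alternatives in 17 members, 16 of them lower, among them CALR (-0.35 to -0.27), HYOU1 (-0.37 to -0.24) and HSPA5 (-0.38 to -0.21). In the other 17 it changed when 1 pool was left out, with these ranges: ATF6 (-0.12 to 0.022), CANX (-0.18 to 0.024), CRELD2 (-0.19 to 0.23), DDIT3 (-0.13 to 0.064), DNAJB11 (-0.061 to 0.10), DNAJB9 (-0.13 to 0.051), ERN1 (-0.040 to 0.12), HERPUD1 (-0.10 to 0.0061), PPP1R15A (-0.12 to 0.039), SDF2L1 (-0.10 to 0.86), SEC61A1 (-0.086 to 0.22), SEC61B (-0.14 to 0.25), SEL1L (-0.090 to 0.058), SSR1 (-0.061 to 0.10), SSR2 (-0.11 to 0.052), SSR3 (-0.069 to 0.17) and TXNDC5 (-0.28 to 0.20). CRELD2 also changed sign with 1 surrogate variable, at -0.088. The cause was not tested. Another scaling changed no sign. The lowest count behind any member's value was 113.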
